A study of Mus musculus with 6 samples.

Results

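The 200 genes described here had the highest lowest signals over 6 arrays of macrophages taken from injured dorsal root ganglia (DRG). For each probe set, the group of short probes that reads one transcript, the lowest MAS5 signal over the 6 arrays was taken, and genes were ranked by their highest-ranking probe set. The first 200 of 17973 eligible genes were kept. The choice left out Affymetrix controls, probe sets with no gene or several genes, and genes of MHC, respiratory chain, ATPase, actin and tropomyosin families by the start of their symbol. These prefixes removed H2-Aa, Atp13a2, Atp8a1 and Atp5a1, whose lowest signals of 2342, 1796, 1534 and 1522 would have placed them in the list. All signals that chose the members are given as a description, with no test.

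The cells were F4/80+ CD11b+ macrophages, gate P5 of a sort from L4 and L5 ganglia that were pooled from the injured (ipsilateral) side, 7 days after spared nerve injury (SNI). One group of 3 arrays came from WT littermate mice and the other from miR-21 cKO mice, with the SNI surgery shared by both. The cKO mice carried a conditional miR-21 allele deleted by Cre under the Avil promoter, which drives Cre in sensory neurons, so arrays of macrophages hold no direct check of the deletion. The study's methods give male mice of 8 to 10 weeks and describe the pools as independently collected biological triplicates. Each array was made from less than 1 ng of RNA. Since RNA was measured in bulk, fewer cells of a type and less RNA per cell cannot be told apart.

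Macrophages enter the ganglion after nerve injury, where they clear debris by phagocytosis and exchange signals with neurons and glia. They are known for abundant transcripts of lysosomal proteases, lysozyme, Fc receptors and their adaptors, and for the surface proteins F4/80 (Adgre1) and CD11b (Itgam) used in this sort. As in other cells, transcripts of ribosomal proteins, translation factors and glycolytic enzymes are usually among the most abundant. A MAS5 signal depends on the transcript and on how well its probes bind, so signals are compared here between arrays and between probe sets only as signals, not as amounts of RNA.

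A list of macrophage identity had 23 measured genes, and none was among the 200, and the highest of them, Mertk, a receptor for the uptake of dying cells, ranked 879 with a lowest signal of 609. Csf1r, the receptor for macrophage growth factor, ranked 1368 and read 461, 490 and 569 in WT and 685, 948 and 831 in miR-21 cKO. All 6 of its signals lay under the background defined in the next paragraph. Every miR-21 cKO array was above every WT array, and such a lack of overlap was found in 9.81% of all probe sets. The difference was not tested. Adgre1 ranked 7982 because it read 96.9 on the second miR-21 cKO array, whereas the other 5 arrays lay between 1979 and 2821. The median gene of the list lay at percentile 45.7 to 69.9 of the eligible genes on the 6 arrays. Lyz2, lysozyme, ran from 438 to 15127 and Itgam from 45.7 to 1296. F4/80, on which the cells were sorted, thus read above the background defined next on 5 arrays and under 100 on 1. CD11b, also used for the sort, read under that background on all 6 arrays. None of the 23 genes was above it on every array.

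The background used for comparison was the 95th percentile, 1644, of the signals of 44 probe sets of olfactory receptor genes (Olfr), which are not expected in macrophages. The median signal was 433 for these probe sets and 293 for all 45037 probe sets. Of the 200 members, 135 lay above that background on all 6 arrays and 65 did not on at least 1 array. Over all 17973 eligible genes the count was also 135. Since the rule ranks by the lowest signal, it only marks where the ranking crosses the background.

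To show what lies around the transcription start of some members, promoter windows of 250 bases before and 50 after it were taken from RefSeq (GRCm38.p6). There 160 of the 200 members had an entry. The 4 windows below belong to Pik3cd and Ptpn6, signalling genes of blood cells, to Grn, a lysosomal gene, and to Hnrnpab, ranked 3 by lowest signal. Capitals mark a TATA box (TATAAA), the box named CCAAT, a GC box (GGGCGG), an ETS core (CGGAAG) or GAGGAA, a core bound by PU.1, on either strand.
Pik3cd, chr4:149698659-149698958, minus strand, the first of 3 listed windows: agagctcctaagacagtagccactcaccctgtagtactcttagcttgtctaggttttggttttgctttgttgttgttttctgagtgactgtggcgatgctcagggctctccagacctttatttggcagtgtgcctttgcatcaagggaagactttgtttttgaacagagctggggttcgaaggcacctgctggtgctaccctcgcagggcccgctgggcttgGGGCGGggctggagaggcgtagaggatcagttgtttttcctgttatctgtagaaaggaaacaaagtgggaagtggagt
Ptpn6, chr6:124738660-124738959, minus strand: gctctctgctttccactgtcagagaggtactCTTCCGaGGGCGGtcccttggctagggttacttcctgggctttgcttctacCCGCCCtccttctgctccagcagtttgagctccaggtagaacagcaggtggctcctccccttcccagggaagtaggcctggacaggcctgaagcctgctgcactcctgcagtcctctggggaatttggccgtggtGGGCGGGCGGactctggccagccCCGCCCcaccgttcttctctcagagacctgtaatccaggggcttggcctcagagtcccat
Grn, chr11:102430257-102430556, plus strand: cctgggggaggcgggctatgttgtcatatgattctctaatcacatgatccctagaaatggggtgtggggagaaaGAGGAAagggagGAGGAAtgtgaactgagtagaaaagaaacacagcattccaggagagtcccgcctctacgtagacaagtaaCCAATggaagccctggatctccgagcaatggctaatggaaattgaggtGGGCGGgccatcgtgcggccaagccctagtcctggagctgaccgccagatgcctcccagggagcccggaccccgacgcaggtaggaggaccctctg
Hnrnpab, chr11:51606832-51607131, minus strand: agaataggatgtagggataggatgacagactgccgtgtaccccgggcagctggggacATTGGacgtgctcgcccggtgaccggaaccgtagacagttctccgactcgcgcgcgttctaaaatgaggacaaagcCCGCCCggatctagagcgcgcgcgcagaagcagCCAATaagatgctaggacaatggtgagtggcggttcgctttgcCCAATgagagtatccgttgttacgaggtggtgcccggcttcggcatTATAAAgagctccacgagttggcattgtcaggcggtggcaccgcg

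The Ptpn6 window held 6 matches, of which 5 were GC boxes, a pair of them overlapping. The Hnrnpab window held 3 CCAAT boxes, 1 GC box and 1 TATA box match that began after the start, at position 6. The Grn window held 1 CCAAT box that began 94 bases before the start, 1 GC box and 2 matches to GAGGAA. The Pik3cd window held 1 GC box. Over the 160 members with a window, the GC box was found in 61.9%, against 54% of 14281 eligible genes with a window. The CCAAT box was found in 44.4% of members and 38.2% of genes, and the ETS core in 35% and 24.6%. The TATA box was found in 6.88% of members and 9.85% of genes, and GAGGAA in 25% and 27.1%. The median GC content was 60.5% in members and 58.7% in all genes, and its part in the motif shares was not tested. Where a gene had several windows, the first listed was used. These matches describe letters in the windows, and binding was not measured.

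The 12 members with the highest lowest signal read between 10217 and 1551890 over the 6 arrays. AY036118 (probe set 1421754_at), an RNA gene that overlaps ribosomal RNA sequence, led with signals of 1230080, 1050010 and 837336 in WT and 876726, 518539 and 1299710 in miR-21 cKO. The array's 3′ control probe set for 18S ribosomal RNA read 865108, 699321 and 504507 in WT and 582049, 407387 and 827046 in miR-21 cKO. Both were lowest on the second miR-21 cKO array and highest on the first WT array and the third miR-21 cKO array.

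E2f5 (1447625_at), a transcription factor of the cell cycle, followed with 589415, 505182 and 341091 in WT and 380540, 247578 and 239439 in miR-21 cKO. The genotypes overlapped, since the lowest WT signal was below the highest miR-21 cKO signal. Hnrnpab (1426114_at), an RNA-binding protein, read 1410300, 714923 and 403763 in WT and 339389, 116029 and 1551890 in miR-21 cKO. Its signals spread over 3.74 on the log2 scale, more than those of any of the other 11 leading members.

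Nrxn3, a presynaptic adhesion protein, read between 44864 and 149828. Rassf1, a Ras-association tumour suppressor, read between 28532 and 96711, and the predicted gene Gm33409 between 22272 and 50351. Pik3cd, the catalytic subunit p110δ of PI3-kinase of white blood cells, read 62151, 44809 and 18694 in WT and 37154, 22162 and 16278 in miR-21 cKO. Its genotypes overlapped.

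S1pr2, a receptor for sphingosine-1-phosphate, read between 13221 and 96330, with its lowest signal on the third miR-21 cKO array. Enc1, an actin-binding protein of neurons, had a lowest signal of 11934. Ezr (ezrin), which ties actin to the plasma membrane, had one of 11152. Csnk1d, a casein kinase, had one of 10779 and Tcea2, a transcription elongation factor, one of 10217. Altogether 13 members had a lowest signal over 10000, 84 lay between 2000 and 10000, and 103 lay under 2000.

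**Figure D1:**
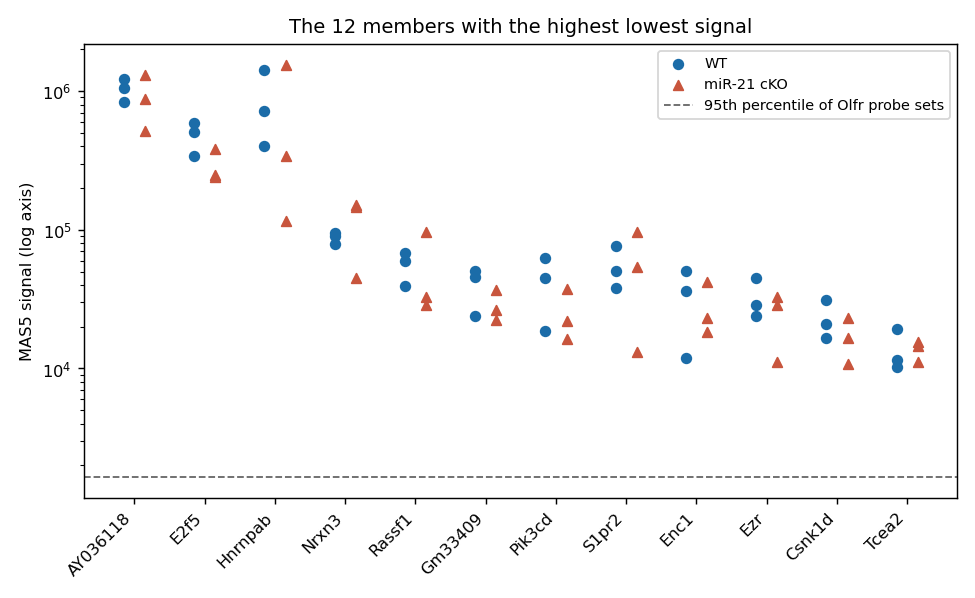
MAS5 signal (log axis) of the 12 leading members on the 3 WT arrays (circles) and the 3 miR-21 cKO arrays (triangles), with the Olfr background as a dashed line. AY036118 and E2f5 lie at 239439 or higher on every array, Hnrnpab spreads from 116029 to 1551890, and the other 9 lie between 10217 and 149828.

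The last members inside the list were Cxxc5, with a lowest signal of 1354.87, and the glycine transporter Slc6a9, with 1354.00. The first genes outside it were Slc35e4, with 1353.97, and the prostaglandin transporter Slco2a1, with 1351.44. The step across the threshold was thus smaller than the step on either side of it.

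Ranking by the lowest signal favours probe sets that vary little, so the small spread of the members is not a result. Their log2 range over the 6 arrays had a median of 1.47 against 3.99 over all probe sets, and 37 members had a range under 1. The smallest ranges belonged to Slc9a3r1, a scaffold protein that binds ezrin (0.45), Prf1, the perforin of killer cells (0.52), Ptpn6, the phosphatase SHP-1 that dampens receptor signalling in blood cells (0.61) and Gmeb1, a transcription factor (0.66). Slc9a3r1 read 3791, 4303 and 3143 in WT and 3398, 4261 and 3627 in miR-21 cKO. Ptpn6 read 3601, 2823 and 2760 in WT and 3095, 2741 and 2355 in miR-21 cKO.

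The largest ranges came from single arrays. Rab3a, a GTPase of synaptic vesicles, read 6661, 5248 and 1448 in WT and 1931 and 3445 on the first 2 miR-21 cKO arrays, but 439808 on the third. This signal was 66.0 times the next highest, and the genotype difference of 1.95 ± 2.58 (log2, SE, limma) did not pass the test. Ccnjl, a cyclin-like gene, read 88739 on the second WT array and between 4229 and 9710 on the other 5. Spaca3, a sperm protein related to lysozyme, had its lowest signal, 1448, on the third miR-21 cKO array, and the other 5 lay between 7098 and 26470. Kif3b, a kinesin motor subunit, read 1419 on the second miR-21 cKO array and between 10969 and 24200 on the others.

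Over all 200 members the median signal on an array was 4083, 4864 and 3276 in WT and 3613, 3299 and 3890 in miR-21 cKO, and the median member lay at percentile 98.9 to 99.1 of the eligible genes. The dimmest member on an array lay at percentile 86.0 to 87.2, so genes outside the list were brighter there. The lowest of a member's 6 signals fell on the second miR-21 cKO array for 52 members, on the third WT array for 42 and on the first WT array for 17. The members held 16.3%, 13.8% and 10.4% of the summed signal of all probe sets in WT and 10.7%, 7.86% and 16% in miR-21 cKO. The 3 brightest members on each array held 3.44% to 10.9% of that sum. The arrays with the highest shares, the first and the second of WT and the third of miR-21 cKO, were also those with the highest signal of the 18S control given above. Other controls differed between arrays as well. The control probe set DapX-5 read 195279, 249611 and 30467 in WT and 11352, 15899 and 400413 in miR-21 cKO. CreX-3 went the other way, with 1540980, 1497610 and 2196780 in WT and 2445320, 1973370 and 1812870 in miR-21 cKO. The 3′ control for beta-actin read 15306 on the third miR-21 cKO array and 61.6 to 149 on the others. The part of these differences in the members' signals was not tested.

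Several roles were represented, and 168 members could be placed in one from what is known of them. These groups were formed with the values in view and carry no test.

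Transcription and chromatin took 16 members, among them Smarcad1, a chromatin remodeller whose signals ran from 9513 to 22366 and the 1 member of 115 genes of histones and chromatin. Zinc finger transcription factors gave 1 of 438, Zfp444. Signalling inside the cell took 19 members. A list of kinases, phosphatases and their subunits held 253 measured genes, of which 6 were members (2.37%). They were Pik3cd, Csnk1d, Ptpn6, Ppp2r1a and Ppp1r32, named as phosphatase subunits, and the receptor phosphatase Ptprs. That list does not hold every kinase among the members, and Mink1 is not on it. All eligible genes together gave 200 of 17973, or 1.11%. RNA processing, the nuclear pore and translation took 11 members. Of 180 genes of RNA binding and splicing, Hnrnpab and the splicing factor Sf3b4 were in the list, with a share of 1.11%. Sf3b4 read 29471, 22567 and 14614 in WT and 21516, 17964 and 7801 in miR-21 cKO.

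The cytoskeleton and cilia took 19 members and membrane traffic 15. Of 88 tubulins and microtubule motors, 3 were in the list, the kinesins Kif22 and Kif3b and the tubulin Tuba3b. Tube1, epsilon-tubulin, was a member outside that list and read between 1468 and 6313. Of 178 genes whose names match small GTPases and their partners, 4 were, namely Rabl2, the exchange factor Rab3il1, Rab8a, which guides vesicles to the plasma membrane, and Rab3a. The ubiquitin pathway took 9 members, among them Fbxo27, a subunit that picks substrates for a ubiquitin ligase and the 1 gene of 290 on the ubiquitin and proteasome list. Metabolism and transport of small molecules took 14. Solute carriers gave 3 of 361, the glutamine transporter Slc38a10, the mitochondrial carrier Slc25a29 and Slc6a9. The mitochondrial gene ND5, a subunit of complex I whose symbol the prefixes do not catch, read between 2082 and 6117.

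Genes known from immune cells and the lysosome numbered 10. Grn, progranulin, which is made by macrophages and acts in the lysosome, read 1679, 1995 and 1634 in WT and 2097, 3297 and 3101 in miR-21 cKO. On this probe set of Grn the genotypes did not overlap, with miR-21 cKO higher, and the third WT signal lay under the Olfr background. Grn had 2 other probe sets, and on both the genotypes overlapped. The brighter of them read 883, 1928 and 418 in WT and 185, 2963 and 1294 in miR-21 cKO. The dimmer did not exceed 157 on any array. Which of them reads the Grn transcript was not tested. Ctse, a cathepsin of antigen-presenting cells, read between 1383 and 3867. Grn and Ctse were the 2 members among 37 measured genes of lysosome and phagocytosis. Cxcl16, a membrane-bound chemokine and scavenger receptor of macrophages, read 8697, 7286 and 2997 in WT and 7544, 4062 and 9170 in miR-21 cKO. It was the 1 member among 105 genes of the list of cytokines and chemokines, which does not hold Il1f6, a cytokine of the IL-1 family that read between 1471 and 2517. Ngp, a granule protein of neutrophil precursors, read between 1543 and 4751, and Prf1 between 1390 and 1990.

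Genes known from neurons and synapses numbered 16, including Nrxn3, Enc1 and Rab3a. Prph, peripherin, an intermediate filament of peripheral neurons, was the 1 member among 19 genes of the sensory neuron list and read 1996, 5278 and 4837 in WT and 5533, 2132 and 4792 in miR-21 cKO. Syp, a synaptic vesicle protein, read between 3575 and 11016. Nes, the filament nestin of neural progenitors, read between 3142 and 6978, and Dbh, the enzyme that makes noradrenaline, between 1845 and 8773. None of the 12 genes of the Schwann cell and satellite glia list was a member. None was either of the lists for fibroblasts, endothelium, muscle, mast cells, T and NK cells, B cells, neutrophils and red cells, which held 3 to 10 measured genes each.

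Receptors and ligands took 19 members, with S1pr2 as the brightest and the hedgehog pathway receptor Smo among them. On a list of 159 G protein-coupled receptors, which does not hold S1pr2 or Smo, the 1 member was Gpr135. Vmn1r44, a vomeronasal receptor of the nose, read between 2365 and 18520 and was the 1 member of 71 olfactory and vomeronasal receptors. Genes known from epithelia, skin and germ cells took 12 members. Casp14, a caspase of the outer skin, read 13769, 11177 and 13496 in WT and 12385, 5308 and 7399 in miR-21 cKO. Cldn3, a tight junction protein, read between 4357 and 13028. On a list of 316 genes of other tissues, Spata9, a testis gene, and Krtap5-1, a hair keratin-associated protein, were members. Non-coding RNAs took 8 members, namely AY036118 and 7 that RefSeq classes as lncRNA, among them Meg3 and Gm33409. A further 32 members were not placed, 1 of them the transcribed pseudogene AI854703.

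Groups that are usually abundant were absent from the list. None of 48 ribosomal protein genes, 58 translation factors, 104 chaperones, 10 glycolytic enzymes or 6 genes of 14-3-3 proteins was a member. The highest lowest signals in these groups were 1056 for Rps7, 1312 for Eif4h, 1047 for Dnajb5, 1015 for Aldoa and 848 for Ywhaz, all under the 1354 needed. None of 9 complement and Fc receptor genes, which macrophages use to bind opsonized particles, was in the list. Nor was any of 58 genes of the interferon response or 217 ion channels a member.

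Many genes have several probe sets, and the rule kept for each gene the one with the highest lowest signal. By the rule itself, the lowest signals of a member's other probe sets are therefore not higher. Such probe sets numbered 407, for 169 of the 200 genes. Of these, 1 (0.246%) was above the Olfr background on all 6 arrays, a second probe set of Gm33409 that read between 4019 and 12727. Of all 34494 eligible probe sets 136 (0.394%) were, and 135 of them were the members' own. The share of the 407 is thus not low beside that of other probe sets. By the mean of log2 signals, 18 of the 407 (4.42%) were above the background, against 1.6% of all eligible probe sets, which include the members' own. The median signal of the 407 was 365 to 479 on the 6 arrays, against 271 to 311 for all eligible probe sets. After Gm33409, the next brightest by their lowest signals belonged to Cysrt1 (1342) and Egfl7, a protein secreted by endothelium (1247). By the highest signal of any other probe set of the gene, the dimmest genes were Spata9, with 110.5, Ufsp1, a protease of the ubiquitin-like modifier UFM1, with 126.6, and Ctse, with 217.8, each with 1 other probe set.

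The gap was wide for the leading genes. The other 2 probe sets of E2f5 did not exceed 1161 on any array, and the other 6 of Hnrnpab did not exceed 1897. The 4 of Nrxn3 stayed at or under 1471 and the 1 of Ezr at or under 1215. For Pik3cd, 1 of the other 5 probe sets read 8194, 8819 and 4272 in WT and 5235, 3156 and 1161 in miR-21 cKO, which was the highest of the 5. For 110 of the 169 genes, no other probe set had on any array a signal above the lowest signal of the member probe set. The rule keeps the probe set with the highest lowest signal, so these gaps and this count are fixed in part by it. Which probe set reads the gene's own transcript was not tested.

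**Figure D2:**
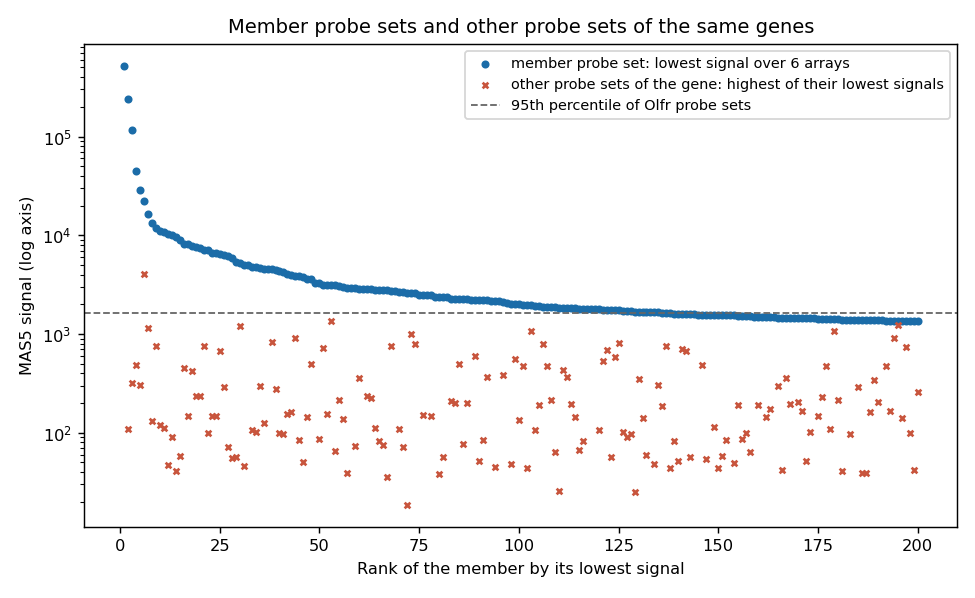
Lowest signal over the 6 arrays of each member probe set (dots) by rank, and the highest of the lowest signals of the other probe sets of the same gene (crosses, 169 genes), on a log axis with the Olfr background as a dashed line. The crosses lie under the line for all genes but Gm33409, also where the member probe set reads above 10000. The rule itself places no cross above its dot.

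The members also differed from other genes in the kind of probe set that read them. In the naming of these arrays, _x_at marks a probe set with some probes that also match other sequences, _s_at one whose probes are shared by several transcripts and _a_at one shared by variants of a gene. Names ending in _x_at read 50 members (25%) against 3.59% of the eligible genes by the same rule. Names ending in _a_at read 33 (16.5%) against 10.7%, _s_at 6 (3%) against 3.77%, and _at alone 111 (55.5%) against 81.9%. Among the first 100 genes _x_at took 31%, and among the first 400 it took 18%, both sizes chosen after seeing the data. Genes read by such a probe set include S1pr2, Ezr, Tcea2, Lonp2, Cep128, Ptchd1, Spaca3, Ccnjl, Rab3a, Epcam, Ptpn6 and Grn. Their signal may hold other transcripts beside the named one, and how much was not tested.

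**Figure D3:**
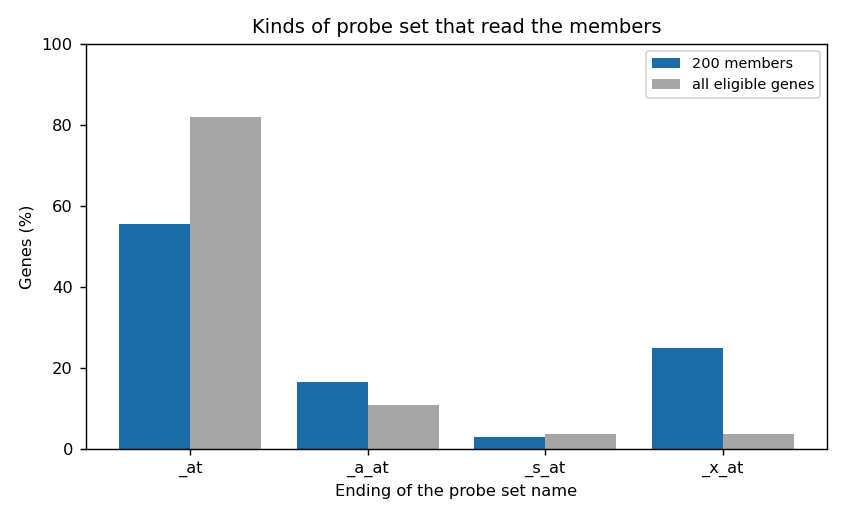
Share of genes (%) read by each kind of probe set, for the 200 members and for all 17973 eligible genes. Names ending in _x_at took 25% of members and 3.59% of genes.

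An array that was not used for the choice gives a view of the same measure apart from the rule. The rule was applied to 5 arrays at a time, and the signals of the 200 genes so chosen were read on the array left out. Between 144 and 172 of the 200 (72% to 86%) were above the Olfr background there, against 7.52% to 8.56% of all genes. Their median signal was 4037, 4712 and 2973 in WT and 3397, 3034 and 3451 in miR-21 cKO, against medians of 396 to 424 over all genes. Between 2 and 12 of them lay below the median of all genes on the array left out. Of the 200 members, 160 to 179 stayed in the list. These arrays share the probe sets and their binding, so the recurrence is one of probe set signals.

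**Figure D4:**
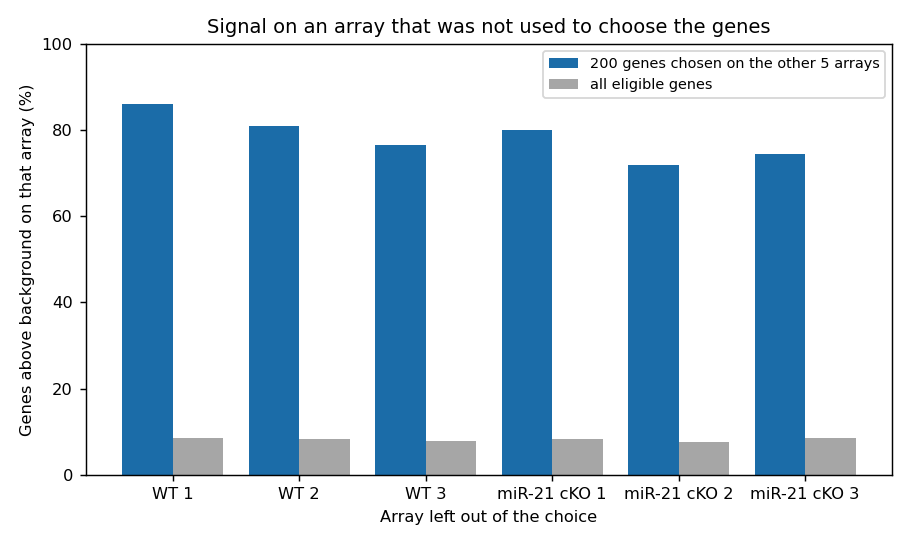
Share of genes (%) above the Olfr background on an array that was left out of the choice, for the 200 genes chosen on the other 5 arrays and for all eligible genes. The chosen genes reached 72% to 86% and all genes 7.52% to 8.56%.

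The genotypes were compared on the log2 scale by limma over all 45037 probe sets, as miR-21 cKO minus WT. The question of the study behind it is whether deletion of miR-21 in sensory neurons changes the macrophages of the ganglion. The choice of members used the signals of both genotypes and favours small differences, so a low count of changed members is fixed in part by the rule. No member passed an adjusted p under 0.05, which 0.0111% of all probe sets did. Before adjustment 16 members had a limma p under 0.05, and 11 had one in the methods' t-test. The share of all probe sets by p alone was not counted, so these counts have no comparison. The methods give p under 0.05 and a 2-fold change as cutoffs, and with the unadjusted limma p 1 member was higher in miR-21 cKO (0.5%) against 2.03% of all probe sets. Lower in miR-21 cKO were 7 members (3.5%) against 2.34%. Together 8 members (4%) passed, near the 4.37% of all probe sets. In the methods' t-test, 2 members (1%) passed the same thresholds against 4.94% of all probe sets, and both were among the 8.

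Enho (1433382_at), which encodes the secreted peptide adropin, was the member that passed in the upward direction, and without the second WT array its log2 difference was 0.90 and no longer passed. It read 3964, 2481 and 5276 in WT and 7232, 7862 and 10833 in miR-21 cKO, so all miR-21 cKO arrays were above all WT arrays. The log2 difference was 1.19 ± 0.47 (SE, limma, adjusted p = 1.00), and the exact permutation test gave p = 0.1, the smallest that 3 arrays against 3 allow.

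Mink1 (1449362_a_at), a kinase upstream of stress-activated MAP kinases, was lower. It read 6345, 7967 and 3372 in WT and 2442, 2349 and 3021 in miR-21 cKO, again with no overlap. The log2 difference was -1.10 ± 0.53 (SE, limma, adjusted p = 1.00). Enho and Mink1 were the 2 members that also passed in the methods' t-test, before adjustment, and the exact permutation test of Mink1 gave p = 0.1. Mink1 fell under the thresholds without 4 of the 6 arrays in turn.

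In the other 6 the genotypes overlapped. Spaca3 differed by -1.54 ± 0.42 (SE, limma, adjusted p = 0.73), with WT at 15061, 26470 and 7098 and miR-21 cKO at 10985, 7246 and 1448. Without the third miR-21 cKO array the difference was -0.66 and no longer passed. Smo differed by -1.27 ± 0.35 (SE, limma, adjusted p = 0.86), with WT at 33847, 25260 and 14654 and miR-21 cKO at 4087, 10240 and 21140. Without the first miR-21 cKO array it was -0.66 and did not pass.

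Ccnjl differed by -1.58, and without its bright second WT array by -0.41. Aqp11, a water channel, differed by -1.20, and without the second WT array by -0.79 and without the third miR-21 cKO array by -0.65. Epcam, an epithelial adhesion protein, differed by -1.19, with WT at 8955, 5535 and 10476 and miR-21 cKO at 2797, 7965 and 1956. Without the third miR-21 cKO array it differed by -0.77. Mex3a, an RNA-binding protein, differed by -1.06, and by -0.79 without the first WT array.

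For these 6 genes limma's residual SD was lower than the SD of the gene itself, since limma draws the spread from the trend over all probe sets. For Spaca3 it took 0.51 where the gene's own arrays gave 1.28, for Smo 0.43 against 0.95 and for Ccnjl 0.66 against 1.49. For Mex3a the values were 0.57 and 0.58. Over the list, 33 members had an SD of their own more than 1.5 times the limma value. E2f5 had the smallest adjusted p of the members, 0.091, with a log2 difference of -0.72 ± 0.17 (SE, limma). Its own SD was 0.39 where limma took 0.21, and the exact permutation test gave p = 0.2.

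Among all members, 16 (8%) had no overlap between the genotypes, against 9.81% of all probe sets. Of these, 8 were higher in miR-21 cKO and 8 lower, and 2 of them (Enho and Mink1) passed the thresholds. Lonp2, a protease of the peroxisome, read 13502, 14562 and 14790 in WT and 8991, 6439 and 7661 in miR-21 cKO, with a log2 difference of -0.90. Ppp1r32 read 1663, 1388 and 2136 in WT and 2961, 3517 and 3770 in miR-21 cKO, with a log2 difference of 1.00 (0.998 before rounding, under the 2-fold threshold). Meg3, an imprinted non-coding RNA, read 2510, 2480 and 2225 in WT and 3319, 3291 and 4217 in miR-21 cKO, with a log2 difference of 0.58. The other members without overlap were Ptchd1, Cep128, Farp1, Zdhhc14, Ttll11 and Ccm2l, lower in miR-21 cKO, and Fancc, Grn, Rab3il1, Chst2 and Rgs16, higher. Lonp2, Ppp1r32 and Meg3 were picked after their values were seen. Meg3 had 10 other probe sets. The brightest of these by highest signal was also higher in miR-21 cKO without overlap. It read 900, 479 and 364 in WT and 1682, 1696 and 3057 in miR-21 cKO. A dimmer probe set of Meg3 was lower without overlap. It read 160, 169 and 1308 in WT and 102, 135 and 129 in miR-21 cKO. On the rest the genotypes overlapped, as on all 3 other probe sets of Lonp2. Which probe set reads the Meg3 transcript was not tested.

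The median log2 difference of the 200 members was -0.16 against -0.03 over all probe sets, and 135 members were below 0 and 65 above. Over all probe sets 48.9% were above 0. Members read on the same arrays are not independent, and their split by direction was not tested. The members' limma SE had a median of 0.53 and ran from 0.16 to 2.58. Of the 200 members, 191 differed by less than 2-fold in their estimate, against 56.6% of all probe sets, a share that the choice by lowest signal raises by itself.

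**Figure D5:**
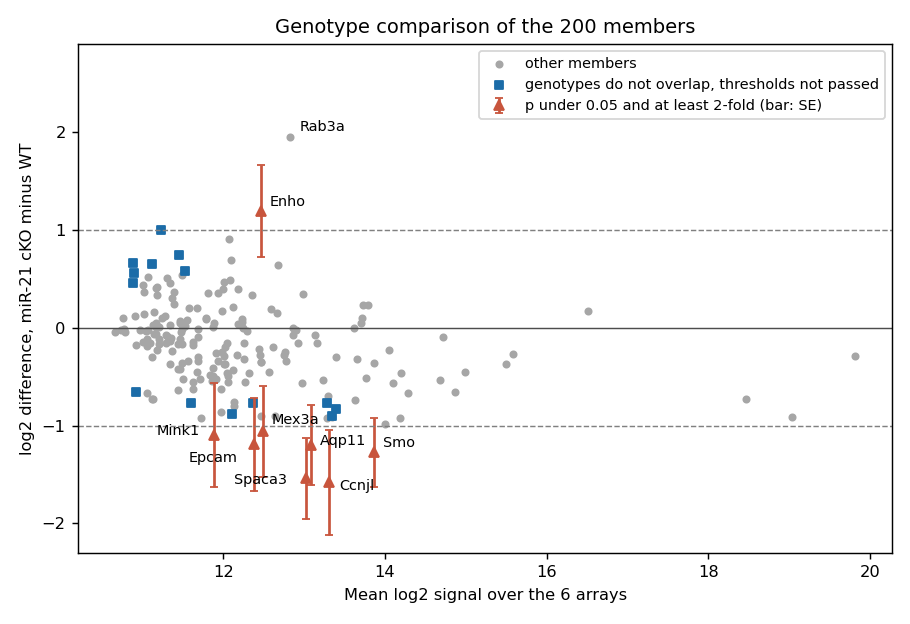
Log2 difference (miR-21 cKO minus WT) of the 200 members against their mean log2 signal over the 6 arrays. Triangles are the 8 members past p under 0.05 and 2-fold, with limma's SE as bars, squares are other members whose genotypes do not overlap, and dashed lines mark 2-fold. Enho and Rab3a lie above the upper line, Rab3a without passing the test, and 7 members lie below the lower one.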

How the data were processed

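The authors used Affymetrix Mouse 430V2 arrays for cRNA that the WT Pico kit had made from total RNA, and Expression Console gave the MAS5 signals. Each deposited value is the intensity of 1 probe set, linear, with the trimmed mean of every array set to 500 by the authors. Detection calls were not used here, and the MAS5 version was not given in the sources used. The number of arrays limits the precision. No genome build of the probe sets is named, so coordinates are those of RefSeq promoter windows.

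Of 45101 probe sets, 64 controls were left out and 45037 tested, with no filter. Gene names came from the platform annotation, and 199 of the 200 members matched a current gene. Log2 signals were fitted with limma 3.58.1 in R 4.3.3 (lmFit, eBayes with intensity trend and robust) with Benjamini-Hochberg adjustment over all probe sets. Student's t-test on the same values, which the study's statistics name, is called the methods' t-test. The fit was also run on simulated data whose spread was set by brightness alone. That run does not test the fit for members whose own SD departs from the trend. Python 3.11.15, pandas 2.3.3 and matplotlib 3.10.9 made the tables and figures.

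Members and 32 gene lists were chosen with earlier results of these data known. From the lists, 4 genes matched only by a name pattern (Csnk1d, Gprasp1, Slc9a3r1 and Rassf1) were taken out of 1 list each after their values were seen. Named genes are the 12 with the highest lowest signal, those next to the threshold, those past a test, up to 6 members per list, the 4 smallest and 4 largest ranges and the 3 brightest and 3 dimmest by other probe sets. Genes named by role were added after their values were seen. Alternatives were other scalings, floors, filters and variance models, other scores for the choice, a replicate block and leaving out each array.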

Additional observations from a re-analysis of the deposited data

How the results depend on the processing

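The list kept 198 of 200 genes with quantile normalization, 193 with median centring, 150 with the mean of log2 signals and 200 with updated symbols. It kept 132 with the median over the arrays and 112 without probe sets ending in _s_at, _x_at or _a_at, and 160 to 179 when 1 array was left out. The count of members higher in miR-21 cKO at the thresholds was 1, and was 2 with quantile normalization, 2 with eBayes with trend but not robust and 0 with eBayes without trend. Leaving out an array gave 1 to 4, with 4 without the third miR-21 cKO array. The count of lower members was 7, and was 0 with eBayes without trend and 1 in the methods' t-test. Leaving out an array gave 5 to 16, with 16 without the third WT array and 13 without the first miR-21 cKO array. Members past an adjusted p numbered 0, and 1 with median centring, 1 with the floor at the 25th percentile, 1 with array weights and 2 with eBayes with trend but not robust. Leaving out an array gave 0 to 4, with 4 without the third WT array. The cause of these changes was not tested.

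With the replicate block, 1 member was higher, 6 were lower and 0 passed an adjusted p. Same-numbered arrays of the genotypes had deviations correlated at -0.016, -0.018 and -0.033, and differently numbered ones at -0.003 to 0.020. With so few arrays these small values cannot tell whether the numbers pair the samples, and the labels do not say. Members without overlap numbered 16 with quantile normalization and 17 with median centring. Of the other probe sets of members, 1 stayed above background under both other backgrounds and with 100 or 400 genes. The log2 differences of the 8 called members kept their direction in all 72 refits by another scaling, array weights or a left-out array, and missed a threshold in 19 of them. The other 24 refits change the error and not the difference, and 11 of them missed a threshold. The share of _x_at ran from 18% to 31% over list sizes and left-out arrays.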
